A study of Homo sapiens with 16 samples.

Results

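The mitochondrial ribosomal proteins are the nuclear-encoded proteins of the ribosome inside mitochondria. They were taken as every protein-coding row of the deposited count table with a symbol that begins with MRPL or MRPS followed by a digit, which gave 78 of the 60664 rows. Of these, 77 had enough counts to be tested, among 15301 genes tested in all, and the other, MRPL53, had 0 counts in every library.

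The mitochondrial ribosome makes the few proteins that mitochondrial DNA encodes, which are core subunits of the respiratory chain and of ATP synthase. Its large subunit forms the peptide bonds, its small subunit decodes the message, and both combine an RNA made inside the mitochondrion with proteins that are made in the cytosol and imported. Some of these proteins descend from bacterial ribosomal proteins and others were added in mitochondria, and in macrophages the respiratory chain that depends on them is known to be remodelled by inflammatory stimulation.

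RNA was sequenced from THP-1 macrophages, a human monocytic leukaemia line turned into macrophage-like cells with the phorbol ester PMA at 100 ng/mL for 48 hours. The design asked how stimulation and stromal cells each, and together, shape the macrophage. The 4 groups of 4 libraries were cells without further treatment (M0), cells cultured with iMSCs, which are mesenchymal stem cells made from induced pluripotent cells (M0+iMSC), cells given lipopolysaccharide of Porphyromonas gingivalis at 100 ng/mL with interferon-gamma at 20 ng/mL (M0+LPS/IFNg), and cells given both (M0+LPS/IFNg+iMSC). Stimulation lasted 48 hours, after PMA had been removed. Per the labels all cells were wild type and the stem cells sat in the upper chamber of a Transwell insert, while the count columns of the co-culture groups carry the letters CM, which the labels leave unexplained.

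Library totals ran from 17336637 to 24368753 counts, of which the members took 31145 to 53898 per library. The labels do not say whether each replicate was its own culture, and p-values here reflect the spread of these libraries, which may be technical. M0+LPS/IFNg replicate 4 stood apart from the others of its group, with a chi-square per degree of freedom over genes of 108 to 118 against each of them and of 2.27 to 3.52 among them. In M0+LPS/IFNg+iMSC replicate 4 also differed, at 11.5 to 12.7 against the other 3 and 2.30 to 5.43 among them. The M0+iMSC libraries fell into replicates 1 and 2 against replicates 3 and 4, with 5.04 and 3.34 within these pairs and 10.7 to 20.1 between them. The summed level of 10 macrophage markers was 1401 to 1510 CPM (counts per 1000000 after TMM scaling) in M0, 1421 to 1497 with stem cells, 2491 to 4579 with stimulation and 4405 to 4580 in the stimulated co-culture, with CD68 itself at no more than 0.280 CPM in any group mean. The value of 4579 was that of M0+LPS/IFNg replicate 4, while replicates 1 to 3 of that group lay at 2491 to 2521. Of 15 mesenchymal stromal markers, the sum was 1562 to 1612, 1367 to 1686, 1112 to 1309 and 521 to 559 CPM in the same order. Of the 12 that could be tested, 7 were higher and 2 lower with co-culture at rest, against 36.2% and 33.6% of all tested genes. With co-culture under stimulation 3 were higher and 6 lower, against 38.4% and 36.3%. Library totals in place of TMM factors gave 7 higher and 2 lower at rest, against 42.7% and 26.7% of all genes. Under stimulation they gave 4 and 4, against 59.0% and 20.0%. In both co-culture groups COL1A2 had 0 counts, while DCN, at 0 in M0 and 0.0662 ± 0.0779 CPM with stimulation alone, reached 0.787 ± 0.398 CPM in M0+iMSC and 18.8 ± 2.02 in the stimulated co-culture. The summed level of 8 proliferation markers was 30.4 to 33.7, 149 to 288, 26.7 to 32.1 and 298 to 521 CPM, with 298 in replicate 4 of the last group, and the part of any of these in the results was not tested.

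Short motifs found in some of these genes' promoters are shown first, because 2 of the 4 searched stood in a larger share of members than of tested coding genes. RefSeq promoter sequences (GRCh38.p14, 250 bases before to 50 after the start) were matched for 69 of the 78 members and searched on both strands for 4 motifs. These were AAGATGGC, bound by YY1, CCGGAAGT, bound by ETS factors such as GABP, GCGC and TGCGC around 1 free base, bound by NRF1, and CACGTG, an E-box bound by MYC and others. The first 3 are known elements of nuclear genes for mitochondrial proteins. No motif contains another. The 30 bases around one match in each of 10 members described further on follow, 5′ to 3′ on the gene's strand, with the motif or its reverse complement in capitals.
MRPS10 (chr6:42217834-42217863, minus strand, YY1): tcgggaccggcAAGATGGCggcgcggacag
MRPS27 (chr5:72320206-72320235, minus strand, YY1): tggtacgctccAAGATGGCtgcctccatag
MRPS30 (chr5:44808949-44808978, plus strand, YY1): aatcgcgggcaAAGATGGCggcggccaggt
MRPS18A (chr6:43687764-43687793, minus strand, YY1): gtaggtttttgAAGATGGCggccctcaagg
MRPL20 (chr1:1407260-1407289, minus strand, YY1): ccgacccgggcAAGATGGCagcggcgctgc
MRPL3 (chr3:131502985-131503014, minus strand, ETS): tgtaaaacgcaCCGGAAGTgggtccggcgg
MRPL16 (chr11:59810767-59810796, minus strand, ETS): gagtgaacacaACTTCCGGccccactgagc
MRPS34 (chr16:1773136-1773165, minus strand, ETS): ctcttccggtgACTTCCGGccggaccgctg
MRPL17 (chr11:6683402-6683431, minus strand, NRF1): aggctctgatGCGCATGCGCaaacacgttc
MRPL57 (chr13:21176574-21176603, plus strand, NRF1): cctcggctctGCGCAGGCGCagtcctctct

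The YY1 letters were the commonest of the 4. They stood in 20 of 69 member promoters (29.0%), against 5.41% of the 10174 promoters of tested coding genes and 2.89% of all 35116 promoters in the table. In 15 members (21.7%) AAGATGGC lay on the gene's strand within the 50 bases after the start, against 3.16% of tested coding genes and 1.25% of all. These letters contain ATG, and whether they cover the start codon was not examined. The ETS letters stood in 11 members (15.9%, against 8.82% of tested coding genes and 4.14% of all), the NRF1 letters in 8 (11.6%, against 11.5% and 5.78%) and the E-box in 6 (8.70%, against 10.0% and 7.26%). A match is a description of letters, and binding was not measured.

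Levels were compared between members per length, as transcripts per 1000000 (TPM) computed from the counts and the exon length in the deposited table. In M0 the median member stood at 30.8 TPM, with quartiles of 11.4 and 64.1. MRPS6, a small-subunit protein with a bacterial homolog, was highest at 463 ± 33.9 TPM, followed by MRPS10 at 179.5 ± 5.17, MRPL33 at 177 ± 6.75 and MRPL18 at 156 ± 4.51. MRPS10 and MRPL33 did not differ beyond their spread. Among the lowest with any counts were MRPL38 at 1.10 ± 0.337 TPM and MRPL12 at 1.15 ± 0.334, the latter encoding the flexible stalk protein that recruits translation factors. The exon length is the union over transcripts, so members with long alternative exons, such as MRPL42 with 15557 bases and MRPS33 with 4210, have low TPM for their counts.

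The lowest levels went with gene structure. In 10 members at least 50% of the span lay inside a coding or long noncoding gene on the same strand, and their median was 2.23 TPM over all libraries, against 35.7 TPM (range 2.45 to 166) in the other 68. Of these 10, 4 lay below 2 TPM and none of the 68 did. They were MRPL2, MRPL12, MRPL30, MRPL38, MRPL46, MRPL53, MRPS6, MRPS17, MRPS24 and MRPS28, of which MRPS6 stood apart with a mean of 380 TPM. MRPS24 lies wholly within URGCP-MRPS24, a readthrough gene listed with 0 counts. The sources used here do not give how reads shared by overlapping genes were counted, and the values of these 10 are uncertain. The same holds, where strand was not used, for members with a gene on the opposite strand. In GENCODE v29 37 tested members share no exon base with another gene. The 79 pseudogene rows with member symbols held 0.0611% to 0.161% as many counts as the members.

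**Figure D1:**
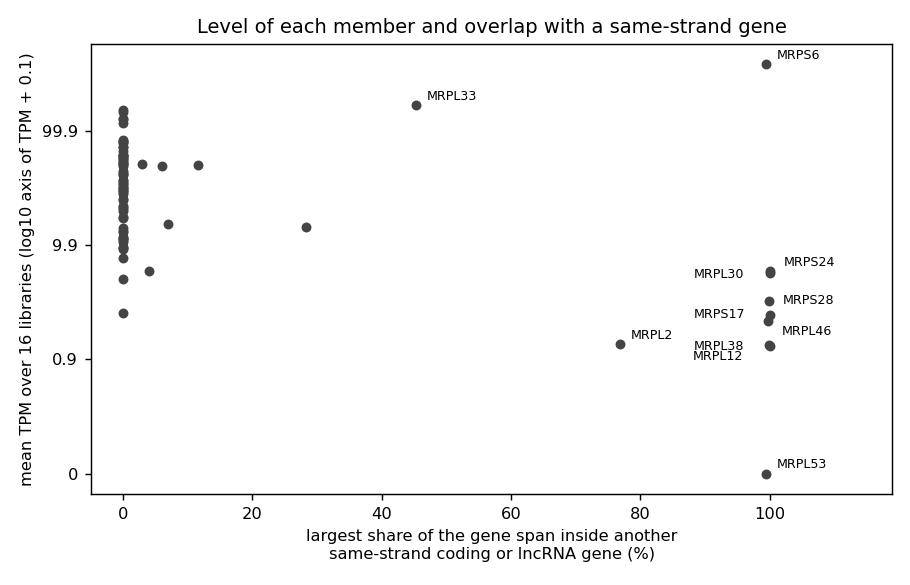
Mean level of each member over the 16 libraries (vertical, log axis of TPM + 0.1) against the largest share of its span that lies inside one coding or long noncoding gene on the same strand (percent). Points are members, and the 10 members at 50% or more had a median of 2.23 TPM, against 35.7 TPM for the other 68.

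Together the members made up 0.204% ± 0.00145 (SD over 4 libraries) of the counts in M0 and 0.226% ± 0.00473 in M0+iMSC. The share was 0.145% ± 0.00220 after stimulation and 0.213% ± 0.0107 in the stimulated co-culture. It was thus lowest in stimulated cells cultured alone, and that group overlapped no other. After TMM scaling their summed level was 2068 to 2094 CPM in M0, 2055 to 2136 with stem cells, 1735 to 1808 with stimulation and 1778 to 1931 with both, and the last groups overlapped. One chemokine transcript, CXCL8, took 9.07% ± 0.930 of counts with stimulation alone, against 4.13% ± 0.137 in M0, 1.80% ± 0.194 in M0+iMSC and 1.64% ± 0.104 with both. In a principal component analysis of the members alone, the first component held 56.3% of the variance and the second 22.1%. The first ran from -3.71 to -3.16 in M0+LPS/IFNg and from -1.04 to -0.85 in M0, while the co-culture groups overlapped on it at 1.76 to 2.32 and 2.05 to 2.60. The second set the stimulated co-culture (1.87 to 2.12) apart from M0+iMSC (-1.52 to -1.33). In bulk RNA, fewer cells of a type and less RNA per cell cannot be told apart.

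**Figure D2:**
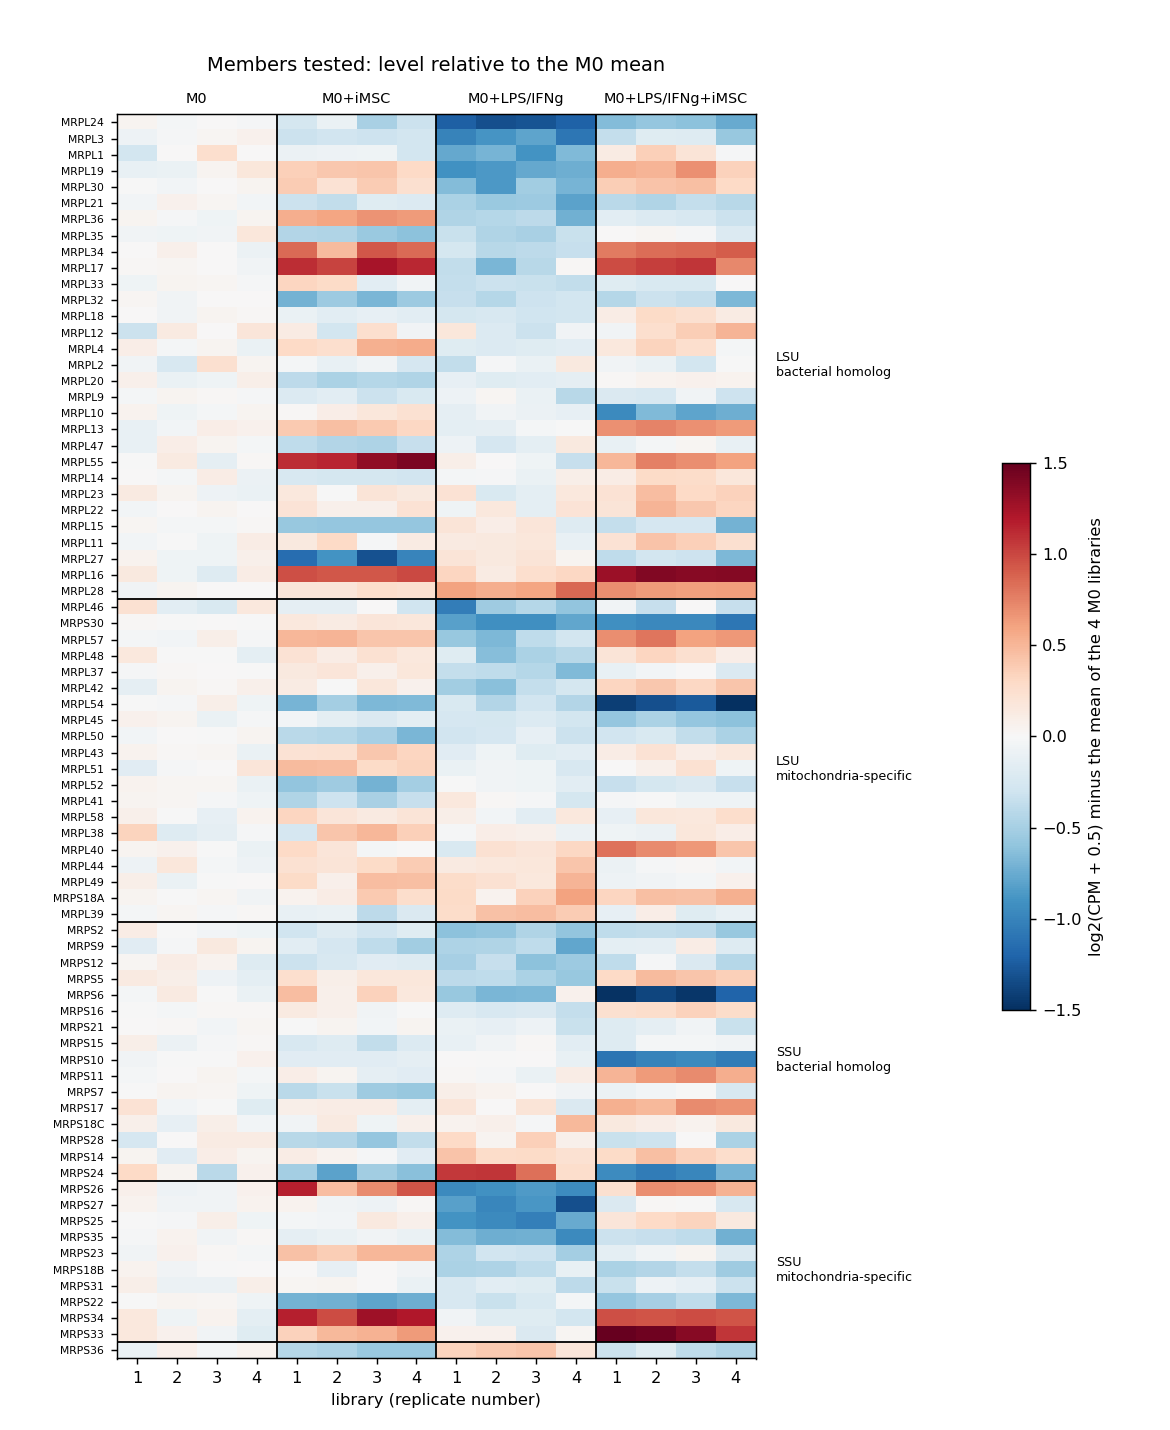
Level of each of the 77 tested members in each library, as log2(CPM + 0.5) minus the mean of the 4 M0 libraries, with the color scale limited to 1.5 in either direction and rows grouped by subunit (LSU, large; SSU, small) and by origin. The M0+LPS/IFNg columns are mostly blue, with MRPL24 and MRPS27 among the darkest, while MRPL28 is red in all of them; MRPS36, in the last row, is placed in neither subunit.

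Stimulation alone lowered more members than it raised. Of 77 members, 38 fell and 9 rose (edgeR quasi-likelihood test, Benjamini-Hochberg adjusted p under 0.05), against 28.3% of all tested genes lower and 29.1% higher. The member median log2 fold change was -0.18, against 0.01 for all genes, and 0 of the rises and 4 of the falls were at least 2-fold, against 9.19% and 8.31% of all genes. In 36 members every M0+LPS/IFNg library lay below every M0 library and in 6 above, against 26.3% and 25.9% of all genes. With library totals in place of TMM factors the split was 55 lower and 2 higher, against 45.3% and 16.5% of all genes. That scaling moved the median of all genes by -0.26. Without M0+LPS/IFNg replicate 4, 37 fell and 9 rose. The other 30 members did not pass the test. Over all 77 the log2 fold changes ran from -1.29 in MRPL24 to 0.98 in MRPS24, a low-count member that was named after its values were seen (adjusted p = 0.000643).

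Falls were found in both subunits. Among large-subunit proteins, 14 of 30 with a bacterial homolog fell and 2 rose, and 9 of 20 specific to mitochondria fell and 4 rose. Of small-subunit proteins, 7 of 16 with a bacterial homolog fell and 2 rose, and 8 of 10 specific to mitochondria fell and 0 rose (median -0.38). Of all tested genes 28.3% fell and 29.1% rose. With library totals the classes had 21, 14, 11 and 9 lower and 1, 0, 1 and 0 higher in this order, against 45.3% and 16.5% of all genes. Differences between these classes were not tested.

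MRPL24, a large-subunit protein with a bacterial homolog, stood at 39.7, 38.0, 38.8 and 38.1 CPM in the 4 M0 libraries and at 16.2, 15.2, 15.4 and 16.4 in M0+LPS/IFNg. It was 2.44-fold lower with no overlap (log2 fold change -1.29 ± 0.07, adjusted p = 1.38e-10), the largest fall among members named by the rule. MRPS27, a mitochondria-specific small-subunit protein of the pentatricopeptide repeat family, stood at 31.1, 28.8, 28.8 and 31.0 CPM in M0 and 16.7, 14.9, 16.2 and 11.7 after stimulation. Every stimulated library lay well under the M0 range, with replicate 4 lowest (-1.01 ± 0.09, adjusted p = 8.9e-08). MRPL3, a large-subunit protein with a bacterial homolog, fell from 63.0 ± 2.57 to 32.7 ± 2.95 CPM (-0.94 ± 0.08, adjusted p = 2e-08). MRPS25 and MRPL19 fell by similar amounts, with log2 fold changes of -0.94 ± 0.07 and -0.85 ± 0.08 (adjusted p = 9.85e-09 and 1.77e-07). 

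MRPS30, which carries a small-subunit symbol but sits in the large subunit, stood at 56.6, 55.6, 56.0 and 55.5 CPM in M0 and 31.5, 29.2, 29.4 and 32.3 in M0+LPS/IFNg. The groups did not overlap and the spread within each was small (-0.87 ± 0.05, adjusted p = 1.67e-10). The largest rise among members named by the rule was in MRPL28, a large-subunit protein with a bacterial homolog, at 24.7, 26.3, 25.8 and 25.8 CPM in M0 and 39.2, 37.7, 39.0 and 46.9 after stimulation. All stimulated libraries were higher and replicate 4 was the highest of them (0.66 ± 0.06, adjusted p = 1.15e-07). MRPL39, MRPS18A, MRPS36, MRPS14 and MRPL49 rose by 0.41, 0.34, 0.34, 0.31 and 0.30 on the log2 scale (adjusted p = 0.000639, 0.0078, 0.000784, 0.00312 and 0.00767). With library totals these rises were 0.15, 0.08, 0.08, 0.05 and 0.04 and none passed the test, while MRPL28 rose by 0.40. MRPS36 is now assigned to the alpha-ketoglutarate dehydrogenase complex rather than to the ribosome.

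**Figure D3:**
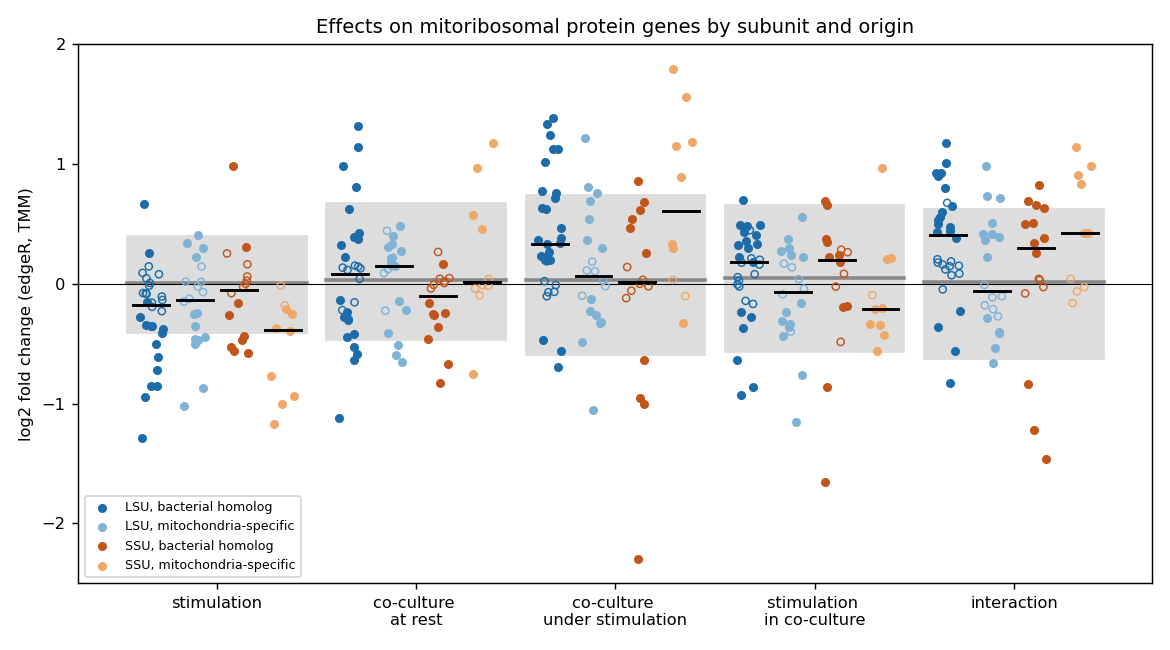
Log2 fold change of each of 76 members in each comparison, by subunit and origin, with filled points for members past the adjusted p threshold, the class median as a black line and the median and quartiles of all tested genes as a grey line and band (MRPS36, in neither subunit, is not drawn). The median of the 10 mitochondria-specific small-subunit proteins was -0.38 under stimulation and 0.61 for co-culture under stimulation.

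Co-culture without stimulation moved members in both directions. Of 77 members, 23 rose and 28 fell, against 36.2% of all tested genes higher and 33.6% lower, and the median log2 fold change was 0.02, against 0.03 for all genes. At least 2-fold were 3 rises and 1 fall, against 17.1% and 9.48% of all genes. In 23 members every M0+iMSC library lay above every M0 library and in 25 below, against 35.7% and 33.3% of all genes. With library totals 34 rose and 15 fell, against 42.7% and 26.7% of all genes, in a scaling that moved their median by 0.14. Without M0+iMSC replicates 3 and 4, 18 rose and 22 fell, and without replicates 1 and 2, 23 rose and 26 fell. The proliferation markers stood at 149 to 288 CPM in these co-culture libraries against 30.4 to 33.7 in M0. Among the 37 members that share no exon base with another gene the median was -0.10, with 11 higher and 17 lower.

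Among members named by the rule, the 3 largest rises were of larger size than the 3 largest falls, at 1.32, 1.18 and 1.15 against -1.12, -0.75 and -0.65. MRPL55, a large-subunit protein, stood at 6.62, 7.36, 6.00 and 6.73 CPM in M0 and at 15.0, 15.3, 17.5 and 18.6 in M0+iMSC. Every co-culture library was above every M0 library, 2.49-fold on average (1.32 ± 0.11, adjusted p = 7.82e-09). MRPS34, a mitochondria-specific small-subunit protein, stood at 16.7, 14.2, 15.4 and 13.3 CPM in M0 and at 33.9, 29.7, 36.4 and 34.8 in M0+iMSC. Again the groups did not overlap (1.18 ± 0.08, adjusted p = 6.09e-10), and EME2 lies on the opposite strand of this gene. MRPL17, with a bacterial homolog, stood at 20.2, 20.4, 20.2 and 19.3 CPM in M0 and at 43.9, 40.9, 48.0 and 44.4 with stem cells (1.15 ± 0.11, adjusted p = 7.86e-08). MRPL16, MRPL34 and MRPL36 rose by 0.98, 0.81 and 0.63 (adjusted p = 4.31e-09, 2.27e-07 and 3.55e-07).

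MRPL27, whose bacterial homolog reaches the peptide-bond-forming centre, stood at 20.1, 18.5, 18.5 and 20.3 CPM in M0 and at 8.51, 10.2, 7.49 and 9.52 in M0+iMSC. It was 2.17-fold lower with co-culture, without overlap (-1.12 ± 0.10, adjusted p = 2.42e-08). MRPS22, a mitochondria-specific small-subunit protein, fell from 33.7 ± 1.09 to 20.0 ± 0.495 CPM (-0.75 ± 0.07, adjusted p = 6.43e-08). MRPL54, MRPL32, MRPL52 and MRPL15, all of the large subunit, fell by 0.65, 0.63, 0.60 and 0.59 on the log2 scale (adjusted p = 4.31e-07, 7.61e-07, 8.55e-08 and 2.09e-05). Among the members with a promoter sequence, AAGATGGC stood in 10 of 23 that fell, 3 of 22 that rose and 7 of 23 that were not called. For stimulation it stood in 11 of 36 that fell, 2 of 8 that rose and 7 of 24 that were not called. With co-culture under stimulation it stood in 5 of 12 that fell, 7 of 37 that rose and 8 of 19 not called. For the interaction it stood in 4 of 10 negative, 10 of 36 positive and 6 of 22 not called. These counts are descriptions, and the splits of the other motifs are not shown.

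**Figure D4:**
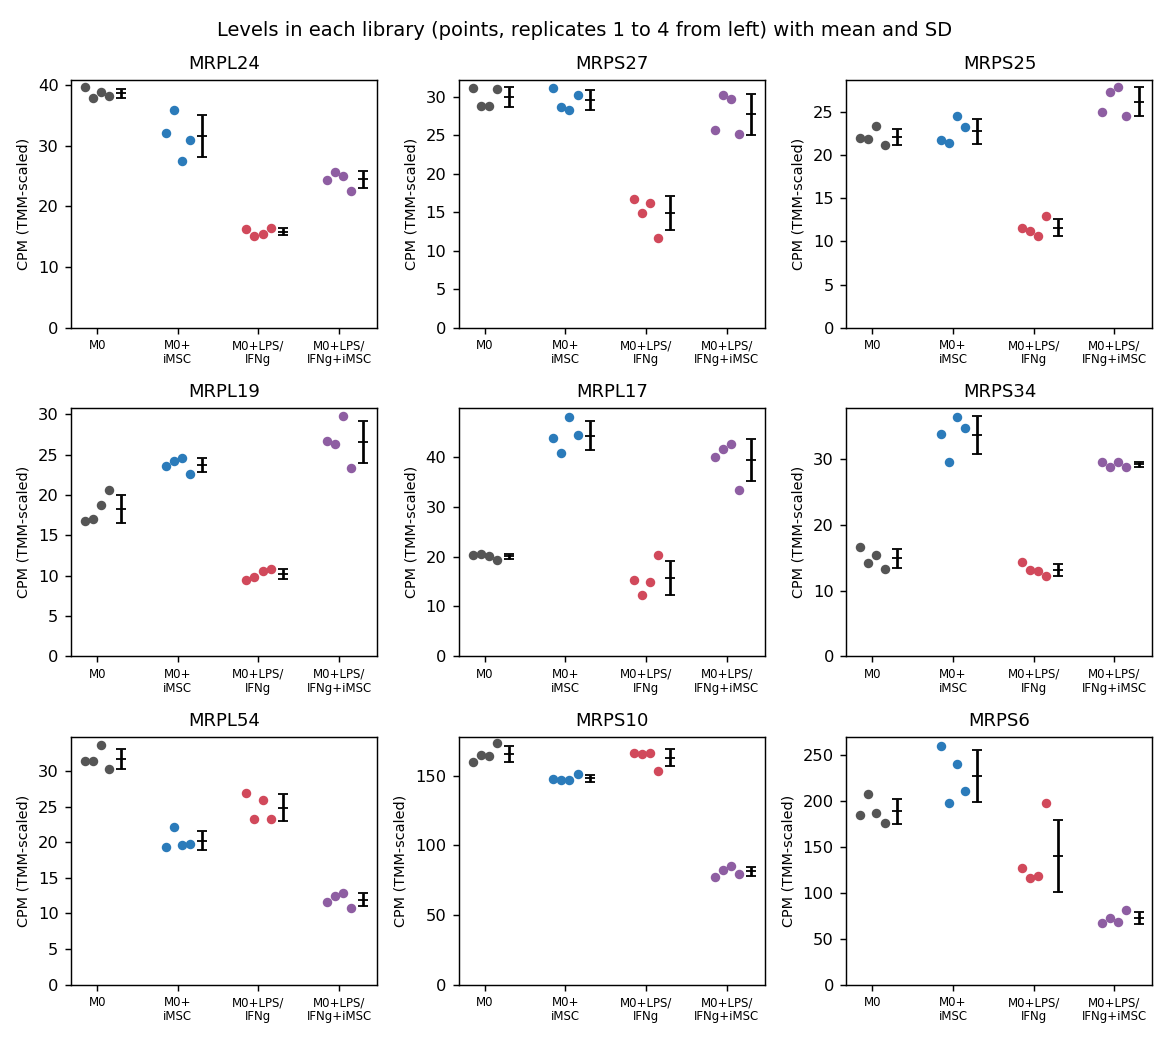
CPM in each of the 16 libraries of selected members, with the mean and SD of each group beside the points. MRPL24 stood at 38.7 CPM in M0, 15.8 with stimulation and 24.5 with both, while MRPS10 stood at 166, 163 and 81.2.

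Under stimulation, co-culture raised most members that it moved. Of 77 members, 41 rose and 16 fell in M0+LPS/IFNg+iMSC against M0+LPS/IFNg, set against 38.4% of all tested genes higher and 36.3% lower. The member median was 0.23, against 0.03 for all genes, and 11 of the rises and 3 of the falls were at least 2-fold, against 19.1% and 14.9% of all genes. In 37 members the co-culture libraries all lay above the others and in 15 below, against 34.2% and 31.8% of all genes. With library totals 63 rose and 6 fell, against 59.0% and 20.0% of all genes, in a scaling that moved their median by 0.47. Without M0+LPS/IFNg replicate 4, 38 rose and 17 fell, and without M0+LPS/IFNg+iMSC replicate 4, 42 rose and 15 fell. Among the 37 members without shared exon bases 20 rose and 10 fell.

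By class, 21 of 30 large-subunit proteins with a bacterial homolog rose and 3 fell (median 0.34), and 7 of 20 specific to mitochondria rose and 7 fell (median 0.07). In the small subunit 6 of 16 with a bacterial homolog rose and 4 fell (median 0.02), and 7 of 10 specific to mitochondria rose and 1 fell (median 0.61). Of all tested genes 38.4% rose and 36.3% fell. With library totals the classes had 26, 16, 12 and 9 higher and 1, 1, 3 and 0 lower in this order, against 59.0% and 20.0% of all genes. Markers of proliferation were higher in the same libraries, at 298 to 521 CPM in sum against 26.7 to 32.1, and all 8 rose.

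MRPL19, a large-subunit protein with a bacterial homolog, stood at 9.48, 9.81, 10.5 and 10.8 CPM in M0+LPS/IFNg and at 26.7, 26.3, 29.8 and 23.4 in M0+LPS/IFNg+iMSC. It was 2.62-fold higher with co-culture, and its lowest co-culture library exceeded every M0 library as well (1.39 ± 0.08, adjusted p = 9.51e-11). MRPS25, a mitochondria-specific small-subunit protein, stood at 11.6, 11.2, 10.6 and 12.9 CPM and at 25.0, 27.4, 27.9 and 24.6 with co-culture. The groups did not overlap (1.18 ± 0.07, adjusted p = 1.47e-10). MRPL17 stood at 15.4, 12.2, 14.9 and 20.3 CPM in M0+LPS/IFNg and at 40.0, 41.7, 42.7 and 33.4 in the stimulated co-culture. Replicate 4 was the highest of the former and the lowest of the latter, and the groups still did not overlap (1.33 ± 0.11, adjusted p = 9.36e-09). MRPL57, a mitochondria-specific large-subunit protein, rose from 6.72 ± 0.892 to 15.6 ± 0.962 CPM (1.22 ± 0.09, adjusted p = 1.04e-09). MRPL34 and MRPS34 rose by 1.24 and 1.15 (adjusted p = 8.72e-10 and 5.02e-10). MRPS26 and MRPS33, below the level that the rule asks for and named after their values were seen, rose from 1.19 ± 0.0509 to 4.13 ± 0.642 and from 2.74 ± 0.289 to 8.05 ± 1.36 CPM (log2 fold changes 1.80 ± 0.18 and 1.56 ± 0.14).

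The falls were fewer and included abundant members. MRPS10, a small-subunit protein with a bacterial homolog, stood at 159.8, 165, 164 and 173 CPM in M0, 147, 147, 147 and 151 with stem cells, 166, 165, 166 and 154 with stimulation and 77.4, 82.6, 85.2 and 79.6 with both. It was 2.00-fold lower in the stimulated co-culture than with stimulation alone, and its highest library lay far below every library of the other groups (-1.0 ± 0.04, adjusted p = 1.94e-12). MRPL54, a mitochondria-specific large-subunit protein, stood at 27.0, 23.2, 25.9 and 23.2 CPM and at 11.6, 12.5, 12.9 and 10.8 with co-culture (-1.05 ± 0.08, adjusted p = 8.48e-10). MRPL10, the protein that anchors the stalk to the large subunit, stood at 22.0, 23.3, 22.8 and 22.3 CPM in M0+LPS/IFNg and 12.4, 15.2, 13.8 and 14.5 in the stimulated co-culture. No library of one group reached the other (-0.70 ± 0.07, adjusted p = 7.02e-08). MRPS36 fell by 0.68 on the log2 scale (adjusted p = 2.06e-07), and MRPL27 by 0.56 (adjusted p = 4.63e-05). With library totals the falls of MRPS10, MRPL54, MRPL10 and MRPS36 were -0.53, -0.58, -0.22 and -0.21 and still passed the test, while MRPL27 was at -0.09 and did not. MRPS24, which lies inside the readthrough gene named above and was picked after its values were seen, stood at 4.45, 4.51, 3.71 and 2.36 CPM in M0+LPS/IFNg and 0.735, 0.653, 0.713 and 0.973 in M0+LPS/IFNg+iMSC (-2.30 ± 0.23, adjusted p = 8.49e-08).

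MRPS6, the member with the highest level per length in every group but the stimulated co-culture, stood at 185, 208, 188 and 176 CPM in M0, 261, 198, 240.4 and 211 with stem cells, 127, 117, 118 and 198 with stimulation and 67.3, 72.3, 68.5 and 81.6 with both. M0+LPS/IFNg replicate 4 lay within the M0 range, apart from the other 3 of its group. Co-culture under stimulation lowered MRPS6 1.93-fold (-0.95 ± 0.15, adjusted p = 2.64e-05), and without that library the log2 fold change was -0.74. For stimulation alone it was -0.43 ± 0.14 (adjusted p = 0.0185) with that library and -0.65 without it, and -0.70 with library totals. SLC5A3, a myo-inositol transporter gene that overlaps MRPS6 on the same strand, stood at 889.9 ± 68.5, 916 ± 158, 575 ± 106 and 115 ± 10.1 CPM in the 4 groups in the order above. Its log2 fold change for co-culture under stimulation was -2.33, and 9.61% of MRPS6 exon bases in GENCODE v29 are shared, so how far its reads enter the MRPS6 counts cannot be told.

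Stimulation was also compared between the co-culture groups. Of 77 members, 29 rose and 24 fell in M0+LPS/IFNg+iMSC against M0+iMSC, against 39.3% of all tested genes higher and 35.1% lower, with a median of 0.08 against 0.05. At least 2-fold were 0 rises and 2 falls, against 16.6% and 15.7% of all genes. In 25 members the stimulated libraries lay wholly above and in 19 wholly below, against 36.8% and 33.3% of all genes. With library totals the split was 36 higher and 17 lower, against 42.7% and 31.9% of all genes. That scaling moved the median of all genes by 0.07. Without M0+LPS/IFNg+iMSC replicate 4, 33 rose and 18 fell. Among members named by the rule the largest rises were in MRPL27 (0.70 ± 0.10) and MRPS11, a small-subunit protein with a bacterial homolog (0.66 ± 0.07), with adjusted p = 5.56e-06 and 3.7e-07. MRPL40, MRPL20, MRPL14 and MRPL35, all of the large subunit, rose by 0.56, 0.49, 0.49 and 0.48 (adjusted p = 0.000307, 1.62e-07, 1.17e-06 and 1.54e-05). MRPS33, a low-count member named after its values were seen, rose by 0.97 (adjusted p = 3.05e-06). The largest falls were in MRPS6 (-1.65 ± 0.15, adjusted p = 7.32e-08) and MRPS30 (-1.15 ± 0.05, adjusted p = 1.26e-12), followed by MRPL10, MRPS10, MRPL36 and MRPL54 at -0.93, -0.86, -0.86 and -0.76.

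Whether co-culture acted differently with and without stimulation was tested by the interaction, the co-culture effect under stimulation minus that at rest. It was positive in 39 members and negative in 11, against 31.1% of all tested genes in each direction, with a median of 0.26 against 0.02. At least 2-fold were 3 positive and 2 negative ones, against 14.2% and 15.8% of all genes. With library totals it was positive in 52 and negative in 5, against 45.9% and 20.3% of all genes. That scaling moved the median of all genes by 0.33. Without M0+LPS/IFNg replicate 4 the interaction was positive in 40 and negative in 10. Without M0+LPS/IFNg+iMSC replicate 4 it was positive in 39 and negative in 10. The highest value was that of MRPL1 (1.18 ± 0.18, adjusted p = 1.81e-05), a low-count member named after its values were seen, at 6.37 ± 1.02, 5.74 ± 0.398, 3.53 ± 0.281 and 7.16 ± 0.845 CPM in the 4 groups. The positive interactions named by the rule were those of MRPS25 (1.14 ± 0.10, adjusted p = 4.47e-08), MRPL19 (1.01 ± 0.12, adjusted p = 8.3e-07), MRPL3, MRPL24, MRPS27 and MRPL35. The last 4 ran from 0.90 to 0.92. The co-culture effects behind these values differed in form. MRPL19 rose with co-culture at rest as well (0.38, adjusted p = 0.000477), while MRPS25 and MRPS27 did not pass the test at rest (0.04 and -0.02). Co-culture lowered MRPL24 at rest (-0.29 ± 0.07, adjusted p = 0.00131) and raised it under stimulation (0.63 ± 0.07, adjusted p = 4.6e-07), to 24.4, 25.7, 25.1 and 22.6 CPM against 32.1, 35.9, 27.4 and 30.9 in M0+iMSC. MRPL35, a large-subunit protein with a bacterial homolog, went from 25.0 ± 2.05 CPM in M0 to 17.3 ± 1.04 with stem cells, and from 18.7 ± 1.00 under stimulation to 24.2 ± 1.80 with both. Its effects thus had opposite signs, -0.53 ± 0.07 at rest and 0.37 ± 0.07 under stimulation (adjusted p = 6.69e-06 and 0.000262).

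Of the negative interactions named by the rule, those of largest size were in MRPS6 (-1.22 ± 0.21, adjusted p = 0.000107), MRPS10 (-0.84 ± 0.06, adjusted p = 4.96e-09) and MRPL10 (-0.83 ± 0.10, adjusted p = 1.15e-06). MRPS24, a low-count member named after its values were seen, was at -1.46 ± 0.34 (adjusted p = 0.00112). MRPL49 rose with co-culture at rest (0.33 ± 0.09) and fell under stimulation (-0.33 ± 0.09), with an interaction of -0.66 ± 0.12 (adjusted p = 0.000199). MRPL44, a large-subunit protein specific to mitochondria, did the same at 0.28 and -0.26 (interaction -0.54 ± 0.10, adjusted p = 0.000213). Under library totals the effect under stimulation was 0.14 in MRPL49 and 0.21 in MRPL44, so their sign there rests on the scaling. MRPL55 rose in both settings, and less under stimulation (-0.56 ± 0.15, adjusted p = 0.0042). With library totals MRPL55 and MRPL44 no longer passed the interaction test.

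**Figure D5:**
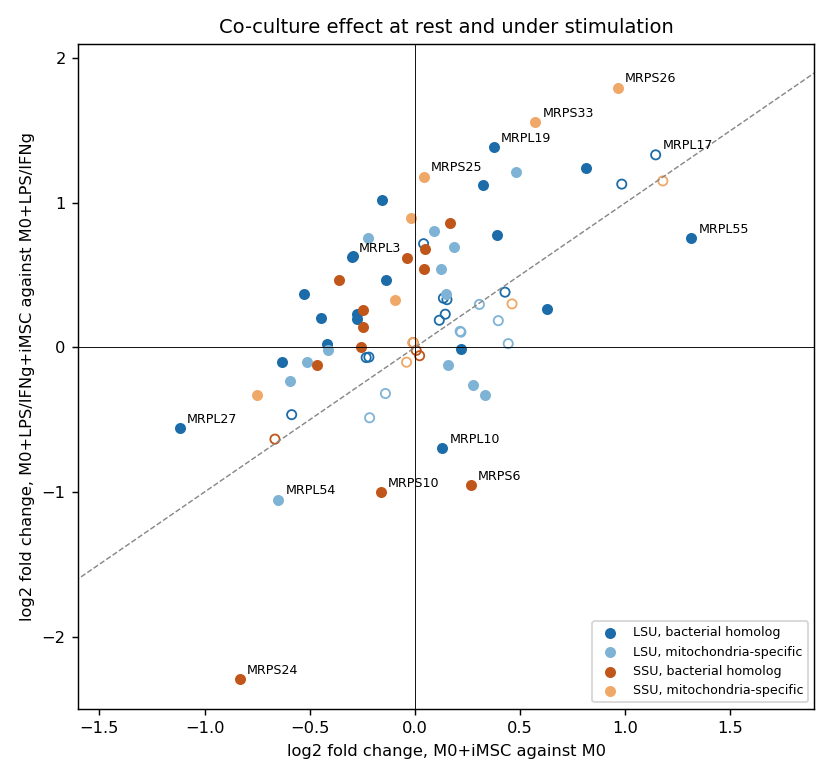
Log2 fold change of the co-culture effect under stimulation (vertical) against the co-culture effect at rest (horizontal) for 76 members, with filled points for members past the threshold in the interaction test and a dashed line of equal effects. MRPL17 lies near the line at 1.15 and 1.33, MRPL19 above it at 0.38 and 1.39, and MRPS10 below it at -0.16 and -1.0.

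The co-culture effects at rest and under stimulation share no library, so they can be set side by side. Of the 23 members that rose at rest, 17 rose and 3 fell under stimulation, against 57.6% and 21.0% of all tested genes that rose at rest. Of the 28 that fell at rest, 9 rose and 11 fell, against 18.3% and 58.0% of all genes that fell. Across the 77 members Pearson's r between the effects was 0.612 and Spearman's rho 0.537, with 50 of the same sign, and across all 15301 genes r was 0.398. Members are not independent replicates, and no test was made on these values. MRPL17 rose by 1.15 at rest and 1.33 under stimulation, MRPS34 by 1.18 and 1.15, and MRPL16 by 0.98 and 1.13. Their interactions were 0.19 ± 0.16, -0.03 ± 0.11 and 0.15 ± 0.11 (adjusted p = 0.315, 0.847 and 0.244), which missed the threshold.

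Several members with known special roles had been picked by name, whatever their values. MRPL58, a peptidyl-tRNA hydrolase built into the large subunit that frees stalled chains, stood at 12.2 ± 0.756, 14.1 ± 0.828, 12.3 ± 1.23 and 13.3 ± 1.54 CPM in the 4 groups, in the order M0, stem cells, stimulation and both, used for every such set of 4. It passed the test in co-culture at rest (0.22 ± 0.09, adjusted p = 0.0474), a call lost in 15 alternatives. MRPL45, which lies at the exit tunnel next to the inner membrane, stood at 28.5 ± 1.49, 25.9 ± 1.36, 23.9 ± 0.541 and 19.1 ± 0.814 CPM and was lower under stimulation (-0.25 ± 0.06, adjusted p = 0.00128). Its fall with co-culture under stimulation (-0.32 ± 0.06, adjusted p = 0.000104) turned to 0.15 with library totals. MRPS12, the decoding-centre protein, fell with stimulation, from 9.99 ± 0.917 to 6.91 ± 0.597 CPM (-0.53 ± 0.11, adjusted p = 0.000379). For co-culture it was at -0.25 at rest and 0.26 under stimulation (adjusted p = 0.0417 and 0.0354), calls lost in 12 and 9 alternatives, with an interaction of 0.51 ± 0.15 (adjusted p = 0.00681).

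MRPL11, at the base of the stalk, stood at 14.0 ± 0.768 CPM in M0 and 14.9 ± 1.35 in M0+LPS/IFNg (0.09 ± 0.09, adjusted p = 0.379). Under stimulation it rose with co-culture (0.23 ± 0.08, adjusted p = 0.0208), and without M0+LPS/IFNg replicate 4 this was 0.17 and missed the threshold. MRPL12, with a mean of at most 0.716 CPM per group, passed the test for co-culture under stimulation (0.72 ± 0.31, adjusted p = 0.0463), a call lost in 18 alternatives. Among the 3 related MRPS18 proteins, stimulation raised MRPS18A, a large-subunit protein (0.34 ± 0.10), lowered MRPS18B (-0.37 ± 0.08, adjusted p = 0.0013) and gave 0.16 ± 0.09 in MRPS18C (adjusted p = 0.147). Differences among them were not tested.

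Ribosomal proteins of the same particle that carry other symbols were read from a separate list of 5. PTCD3, a pentatricopeptide repeat protein of the small subunit, stood at 43.8 ± 1.11, 35.8 ± 1.19, 27.5 ± 2.53 and 49.1 ± 2.07 CPM. It fell with stimulation (-0.67 ± 0.06, adjusted p = 6.66e-08) and rose with co-culture under stimulation (0.84 ± 0.06, adjusted p = 1.26e-09). DAP3, a GTP-binding small-subunit protein, stood at 175 ± 4.88, 109 ± 4.48, 161 ± 5.52 and 132 ± 5.39 CPM and fell with co-culture at rest (-0.68 ± 0.05, adjusted p = 7.97e-10). Of the 5, stimulation raised 3 and lowered 2, co-culture raised 1 and lowered 2 at rest, and raised 2 and lowered 2 under stimulation. With library totals these were 0 and 2, 2 and 2, and 5 and 0.

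The rest of the mitochondrial translation apparatus was given by lists, to be read against the shares of all tested genes lower and higher. With TMM factors these shares were 28.3% and 29.1% with stimulation and 33.6% and 36.2% with co-culture at rest. They were 36.3% and 38.4% with co-culture under stimulation. With library totals the shares were 45.3% and 16.5%, 26.7% and 42.7%, and 20.0% and 59.0% in the same order. Of 12 translation factors tested, 7 fell and 1 rose with stimulation (10 and 0 with library totals), and 5 rose and 1 fell with co-culture under stimulation (12 and 0). TUFM, the elongation factor that delivers aminoacyl-tRNA, stood at 63.3 ± 2.25, 68.2 ± 2.64, 56.8 ± 2.00 and 77.8 ± 4.33 CPM (0.45 ± 0.05 for co-culture under stimulation, adjusted p = 3.02e-07). Of 26 assembly and rRNA modification genes, 13 fell and 2 rose with stimulation (21 and 0 with library totals), and 9 rose and 10 fell with co-culture under stimulation (20 and 1). C1QBP, a matrix protein known from mice to be needed for mitochondrial translation, fell with stimulation (-1.01 ± 0.09, adjusted p = 5.67e-08) and rose with co-culture under stimulation (1.03 ± 0.09, adjusted p = 1.43e-08).

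RNAs made inside the mitochondrion gave other counts. Of 13 mitochondrially encoded mRNAs, 4 rose and 0 fell with stimulation, and 0 rose and 11 fell with co-culture under stimulation (median -0.47), where 41 members had risen. With library totals 0 rose and 2 fell with stimulation, and 2 rose and 2 fell with co-culture under stimulation (median 0.0045), in scalings that moved the median of all genes by -0.26 and 0.47. The rises of MT-CO1 and MT-CO2 with stimulation became -0.017 and -0.045 and did not pass. MT-RNR1 and MT-RNR2, the rRNAs of the small and the large subunit, changed by -0.76 ± 0.13 and -0.77 ± 0.07 with co-culture under stimulation (adjusted p = 5.9e-05 and 3.09e-08). Whether the libraries were selected for polyadenylated RNA, which bears on rRNA counts, is not given in the labels.

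Of 15 import and mass markers, 13 fell and 0 rose with stimulation, 9 fell and 0 rose with co-culture at rest, and 8 rose and 3 fell with co-culture under stimulation. With library totals the counts lower and higher were 15 and 0, 8 and 2, and 0 and 13. HSPD1, the matrix chaperonin, fell with stimulation (-1.52 ± 0.07, adjusted p = 1.09e-11) and rose with co-culture under stimulation (1.41 ± 0.07, adjusted p = 8.32e-12). Of 12 transcription and DNA maintenance genes, 6 fell and 3 rose with stimulation, 8 fell and 3 rose with co-culture at rest (median -0.52), and 3 fell and 8 rose with co-culture under stimulation. With library totals these were 6 and 0, 7 and 3, and 1 and 9. Among 8 regulators of mitochondrial biogenesis, 5 fell and 1 rose with stimulation, 5 fell and 1 rose with co-culture at rest, and 6 fell and 2 rose with co-culture under stimulation, where library totals gave 1 and 3. MYC, which drives ribosome synthesis, stood at 101 ± 2.99, 31.7 ± 1.74, 32.8 ± 2.39 and 87.5 ± 6.81 CPM, with an interaction of 3.08 ± 0.09 (adjusted p = 8.28e-14). YY1 itself, named because its letters were searched for, stood at 146 ± 3.98, 153 ± 9.09, 125 ± 8.86 and 107 ± 2.34 CPM and was lower in stimulated cells, by 0.23 without and 0.52 with stem cells (adjusted p = 0.00177 and 1.5e-07).

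The cytosolic ribosomal proteins, of the other ribosome of the cell, had 59 of 81 lower and 6 higher with stimulation (median -0.34, against -0.18 in the members). With co-culture at rest 25 were higher and 25 lower (median 0.04, against 0.02), and with co-culture under stimulation 61 were higher and 5 lower (median 0.32, against 0.23). With library totals the counts lower and higher were 74 and 1, 10 and 42, and 1 and 78. The difference between the ribosomes was not tested.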

How the data were processed

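The authors deposited 1 table of raw counts per gene for 16 libraries, with gene type, exon length and coordinates on GRCh38.p13 per the file headers. The submitters' processing notes name HISAT2, HTSeq and GRCh38 without versions. Use of strand and treatment of reads shared by genes are not given in the sources used here. Per the labels' protocols RNA was extracted with TRIzol and libraries were made with a VAHTS Universal V6 kit. Columns were matched to groups by name.

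From these counts, edgeR 4.0.16 in R 4.3.3 (filterByExpr, TMM factors, robust quasi-likelihood fit of all 4 groups with 12 residual degrees of freedom) gave log2 fold changes, standard errors (the log2 fold change divided by the square root of F) and two-sided p-values, with Benjamini-Hochberg adjustment over all 15301 genes tested and a threshold of 0.05. Values with ± are means and SDs over the 4 libraries of a group, or log2 fold changes and standard errors. CPM used TMM factors, and TPM was computed here as counts per exon length scaled to 1000000 per library. Totals of 17336637 counts or more put 1 CPM at 17 counts or more before scaling, and these errors cover the spread between libraries.

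Members and lists were chosen with earlier results of these data known, and some lists were taken from earlier work on them. Named were, for each comparison, up to 6 rises and 6 falls of largest size among members past the threshold whose average log2 CPM was 3 or more, a fixed set (MRPL12, MRPL11, MRPS12, MRPL58, MRPS18A, MRPS18B, MRPS18C, MRPS30, MRPS6 and MRPL45), and up to 3 genes with the smallest p from each other list. Gene overlap was read from GENCODE v29. The alternatives were other scaling factors, no low-count filter, DESeq2 1.42.0, limma-voom 3.58.1, a replicate block, fits of only the groups compared, leaving out libraries, and members with no shared exon bases, the last added after the data were seen. The edgeR steps were also run on simulated data with the same dispersion for every gene and few changed genes. That run differs from these data and bears on the steps alone.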

Additional observations from a re-analysis of the deposited data

Results flagged for a closer look

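Among 168 groups of 4 libraries, from 41 named genes and the members' summed level, 11 held a library far from the other 3 by Dixon's criterion. Chance flags about 1 in 20 groups. M0+LPS/IFNg replicate 4, the library that stood apart over all genes, was the distant one in 6 of them. In that library MRPL28 was at 46.9 CPM, against 37.7 to 39.2 in the other 3 of its group. MRPS10 was at 153.5 CPM there, against 165 to 166, and MRPS6 at 198 CPM, against 117 to 127. MRPL44 was at 47.5 CPM, against 39.2 to 40.0. MRPL11 was at 12.9 CPM, against 15.3 to 15.8, and MRPS18C at 37.6 CPM, against 26.3 to 28.1.

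The other 5 were spread over 2 groups. In M0, MRPL52 in replicate 4 was at 43.6 CPM against 47.8 to 48.5, MRPL35 in replicate 4 at 28.0 CPM against 23.7 to 24.1, and MRPL57 in replicate 3 at 10.1 CPM against 9.22 to 9.34. In M0+iMSC, MRPL54 in replicate 2 was at 22.2 CPM against 19.3 to 19.8, and MRPS10 in replicate 4 at 151 CPM against 146.6 to 147.

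By the interaction term, 31.1% of all tested genes passed the threshold in each direction. The co-culture effect differed between stimulated and unstimulated cells, by that term, in 39 members with a positive and 11 with a negative value. Those named were MRPS25 at 1.14, MRPL19 at 1.01, MRPL3 at 0.92, MRPL24 at 0.92, MRPS27 at 0.91 and MRPL35 at 0.90, and, with a negative value, MRPS6 at -1.22, MRPS10 at -0.84, MRPL10 at -0.83, MRPL49 at -0.66, MRPL55 at -0.56 and MRPL44 at -0.54. Without M0+LPS/IFNg replicate 4 the interaction of MRPS6 was -1.0.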

How the results depend on the processing

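Member counts kept within 1.5 times of those reported in most alternatives. Leaving out each library in turn gave, for members higher, lower and the median log2 fold change, 9 to 9, 34 to 39 and -0.20 to -0.17 for stimulation, 20 to 25, 24 to 28 and -0.0073 to 0.028 for co-culture at rest, 37 to 42, 15 to 17 and 0.21 to 0.25 for co-culture under stimulation, 23 to 34, 18 to 25 and 0.07 to 0.12 for stimulation in co-culture, and 37 to 40, 10 to 12 and 0.23 to 0.32 for the interaction. Library totals without scaling factors moved the medians to -0.44, 0.16, 0.70, 0.16 and 0.59 in the same order. They gave 2 members higher with stimulation, 15 lower with co-culture at rest, and 63 higher and 6 lower with co-culture under stimulation. The interaction was negative in 5. The shares of all genes under library totals are given with each comparison above. Upper-quartile factors gave medians of -0.22, 0.085 and 0.31 for stimulation and for co-culture at rest and under stimulation. For co-culture at rest the median was -0.025 without M0+iMSC replicates 1 and 2 and 0.043 without replicates 3 and 4. Over the 37 members with no shared exon bases, an alternative chosen after seeing the data, the medians were -0.25 for stimulation, -0.10 for co-culture at rest, -0.022 for stimulation in co-culture and 0.19 for the interaction.

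Among genes named for the comparison, sign changes are listed where either fit passed the threshold. Library totals turned the sign for MRPL58 (-0.24), AURKAIP1 (-0.034), MT-CO1 (-0.017) and MT-CO2 (-0.045) with stimulation. It also turned for MRPS18B (0.37), MRPS18C (0.42), MRPS30 (0.35), MRPL45 (0.15), DAP3 (0.19) and OXA1L (0.17) with co-culture under stimulation, and for MRPS30 in the interaction (0.050). MRPL49 and MRPL44, named for the interaction, turned to 0.14 and 0.21 with co-culture under stimulation. Library totals moved the median of all genes by -0.26 with stimulation, 0.47 with co-culture under stimulation and 0.33 in the interaction. Any further cause was not tested. Of the other values for single genes, 6614 kept their side of the threshold, 127 lost the threshold and 58 passed it newly. The 6614 include any value that changed sign without passing the threshold in either fit.

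Libraries with the same replicate number did not clearly deviate together (correlations -0.106 to 0.172, 1 of 24 above 0.1). A weak shared effect could be missed at 4 libraries a group, so pairing by number is not excluded. With the number as a replicate block, members higher and lower were 9 and 38, 24 and 28, 40 and 15, 30 and 21, and 38 and 11, with medians of -0.18, 0.02, 0.23, 0.09 and 0.26. Fits of only the groups compared were not run for the interaction. Depth limits low members such as MRPL12 and MRPL38, and at 4 libraries a group a small difference may be missed.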

Other observations

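Some genes outside the ribosome, from the lists counted above, are given here with their values. TOMM40, the import channel of the outer membrane, stood at 81.7 ± 4.14, 52.3 ± 4.40, 37.0 ± 0.886 and 46.9 ± 3.51 CPM (M0, stem cells, stimulation and both), and fell with stimulation (-1.14 ± 0.07, edgeR quasi-likelihood adjusted p = 1.89e-10). LRPPRC, which stabilises mitochondrial mRNAs, stood at 201 ± 3.19, 137 ± 3.34, 103 ± 5.64 and 156 ± 15.8 CPM, with an interaction of 1.14 ± 0.09 (adjusted p = 7.19e-09). GFM2, which splits the ribosome for recycling, rose with co-culture under stimulation (0.88 ± 0.09, adjusted p = 1.02e-07). MRRF, the recycling factor that works beside it, fell with stimulation (-0.61 ± 0.07, adjusted p = 1.64e-06) and with co-culture at rest (-0.75 ± 0.07, adjusted p = 6.98e-08).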
